A study of Mus musculus with 8 samples.

Results

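The proteasome genes of the mouse liver were taken as every row of the table whose symbol is Psm, a letter from a to g and a number. This gave 48 genes of 52030 named symbols. They were measured by bulk RNA sequencing in 8 libraries of liver from mice labelled WT, all fed CDAHFD, a high-fat diet lacking choline and with defined amino acids, which produces steatohepatitis, a fatty and inflamed liver. All mice had received, by vein, extracellular vesicles from the blood of human volunteers. In the RIC_hEV group (4 libraries) the volunteers had undergone remote limb ischemic conditioning, in which blood flow to a limb is briefly interrupted, and in the ctr_hEV group (4 libraries) a sham procedure. The sources used here do not give strain, age, vesicle dose, number of donors or time of collection, and mice without the diet or without vesicles are not analysed here. The series title says that conditioning eases the disease through vesicles, so the comparison asks whether the transcripts of the proteasome differed between both kinds of vesicle.

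The proteasome is the large protease that degrades proteins tagged with ubiquitin. Its barrel, the 20S core, stacks rings of alpha subunits (Psma genes) on rings of beta subunits (Psmb genes), and Psmb6, Psmb7 and Psmb5 carry the active sites with caspase-like, trypsin-like and chymotrypsin-like activity. The 19S cap (Psmc and Psmd genes) recognises, unfolds and feeds in the substrate. Interferon gamma induces the alternative catalytic subunits Psmb9, Psmb10 and Psmb8, which take the places of Psmb6, Psmb7 and Psmb5 in newly built cores. The resulting immunoproteasome makes peptides suited to MHC class I presentation, and is abundant in immune cells. In the diseased liver its transcripts can come from infiltrating immune cells as well as from hepatocytes, and in a piece of bulk tissue fewer cells of a type and less RNA per cell cannot be told apart.

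Levels are in FPKM, fragments scaled to transcript length and to the sequencing depth of the library, as deposited. Depth was estimated by taking the most common FPKM times annotated exon length among low genes as a single fragment. It came to 19300000 to 28800000 fragments per library, and is approximate because the gene lengths behind the FPKM are not stated. The libraries did not lie evenly: ctr_hEV 1 held the highest value of 44.7% of the 11268 tested genes, and RIC_hEV 1 the lowest value of 26.9%. The median tested gene was 0.11 log2 units lower in RIC_hEV, so each log2 change below is given as fitted, and the change relative to that median is named as such. Whether each library comes from its own mouse is not stated. The p-values therefore measure the spread between these libraries.

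No proteasome gene passed the threshold between the groups. Of the 48 members, 46 had a mean of at least 1 FPKM and were tested, and 0 passed at an adjusted p of 0.05 (limma with Benjamini-Hochberg adjustment over all tested genes, lowest adjusted p = 0.356), where 0.0355% of all tested genes did. Limma without the mean-variance trend also called 0. At an unadjusted p under 0.05 there were 2 members, both lower in RIC_hEV, against 14.0% of all tested genes. In no member did the groups fail to overlap, whereas they did not overlap in 5.88% of all tested genes. As fitted, 40 members lay lower in RIC_hEV and 6 higher. With per-library median centring 13 lay lower and 33 higher, and with quantile normalization 35 lay lower and 11 higher. Among all tested genes 73.0% lay lower as fitted, 43.7% with median centring and 51.5% with quantile normalization. The median change of the 46 was -0.09 log2 units, or 0.018 above the median of all tested genes.

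**Figure D1:**
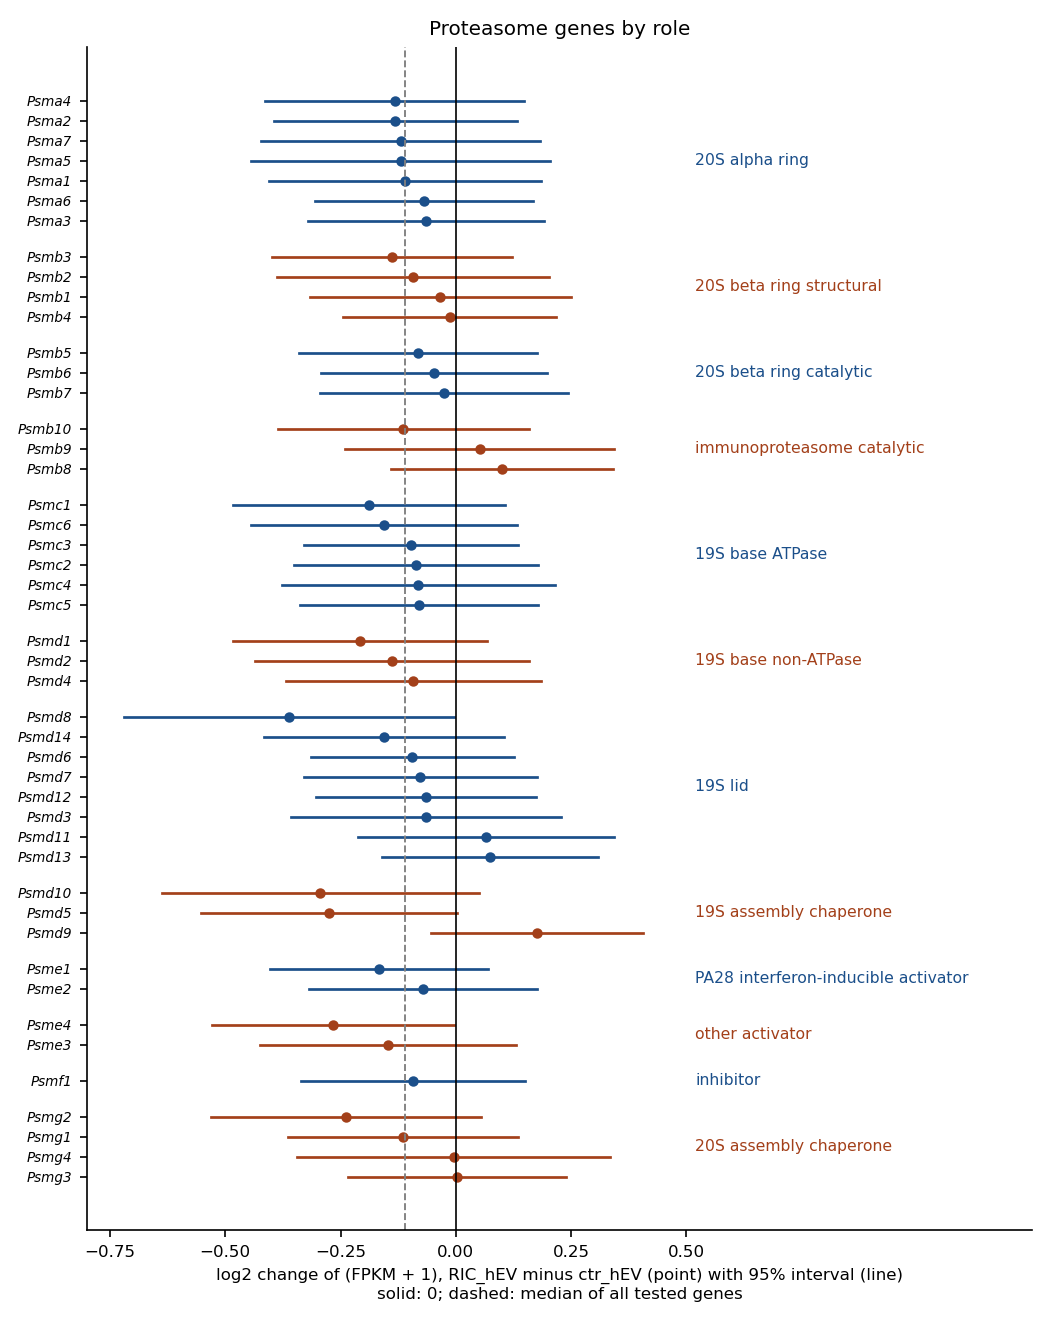
Log2 change of (FPKM + 1), RIC_hEV minus ctr_hEV, for the 46 tested proteasome genes (rows, grouped by role), with points for the fitted change and lines for the 95% interval from limma. The solid line marks 0 and the dashed line the median of all tested genes at -0.11; 44 of 46 intervals include 0, the exceptions being Psmd8 and Psme4, whose upper bounds are -0.0047 and -0.0038.

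The 3 immunoproteasome subunits were all expressed, at low to moderate levels. Psmb8, which replaces Psmb5 (chromosome 17, 34197721 to 34201454, plus strand, mm10), measured 7.88, 5.96, 5.90 and 6.63 FPKM in the ctr_hEV libraries, in the order of their numbers 1 to 4, and 7.38, 6.92, 7.55 and 6.60 in the RIC_hEV libraries. The same order is used for every gene below. The highest value was that of ctr_hEV 1 and the groups overlapped. The ctr_hEV mean was 6.59 ± 0.920 FPKM and the RIC_hEV mean 7.11 ± 0.430 (SD, n = 4 per group), a log2 change of 0.10 (SE 0.11, 95% interval -0.14 to 0.34, limma adjusted p = 0.632). Relative to the median gene this change was 0.21. The fitted change ran from 0.058 without ctr_hEV 3 to 0.18 without ctr_hEV 1 and was 0.24 with median centring. Of the annotated exon bases of Psmb8, 14.7% overlap Gm20496 on the opposite strand, and whether the counting used strand is not stated.

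Psmb9, which replaces Psmb6 and lies beside the peptide transporter gene Tap1 (chromosome 17, 34181987 to 34187764, minus strand), was the lowest tested member. It was at 2.74, 3.13, 2.46 and 2.58 FPKM in ctr_hEV and at 2.53, 3.95, 2.72 and 2.40 in RIC_hEV. RIC_hEV 2 alone stood above the other libraries, and the remaining RIC_hEV values lay within or below the ctr_hEV range. The log2 change was 0.05 (SE 0.13, 95% interval -0.24 to 0.34, limma adjusted p = 0.854) and turned to -0.069 without RIC_hEV 2. An estimated 169 to 330 fragments per library stood behind these values, against 1530 to 2944 for Psmb5.

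Psmb10, which replaces Psmb7 (chromosome 8, 105935735 to 105938444, minus strand), was the highest of the 3. It was at 15.4, 12.1, 13.0 and 15.9 FPKM in ctr_hEV and at 13.9, 14.2, 12.7 and 10.9 in RIC_hEV. The lowest value was that of RIC_hEV 4, and the other RIC_hEV libraries lay inside the ctr_hEV range. Its log2 change was -0.11 (SE 0.12, 95% interval -0.39 to 0.16, limma adjusted p = 0.633), the same as that of the median gene, with a relative change of -0.0032. It ran from -0.18 without ctr_hEV 2 to -0.042 without RIC_hEV 4. Psmb8 and Psmb9 thus lay higher as fitted and Psmb10 lower, and under median centring all 3 lay higher. With quantile normalization Psmb10 stayed lower, at -0.026.

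The constitutive counterparts were more abundant per length, by far for Psmb5 and Psmb6 and less so for Psmb7 (mean 33.6 FPKM, against 13.5 for Psmb10). Psmb5 (chromosome 14, 54614119 to 54618022, minus strand) was at 118, 96.6, 96.2 and 90.1 FPKM in ctr_hEV and at 87.4, 95.9, 107 and 88.3 in RIC_hEV, with ctr_hEV 1 highest and RIC_hEV 1 lowest. It had the highest mean of all members, 97.4 FPKM, but 71.7% of its 31-base stretches also occur in other annotated genes, most of them in Gm3375, so its level is uncertain. Psmb6 (chromosome 11, 70525367 to 70527858, plus strand) measured 56.2, 48.2, 51.0 and 48.1 FPKM in ctr_hEV and at 44.2, 53.8, 54.5 and 44.7 in RIC_hEV. The RIC_hEV libraries thus formed a higher pair (2 and 3) and a lower pair (1 and 4), with ctr_hEV between them apart from ctr_hEV 1, the highest.

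The same order appeared in Psmb7 (chromosome 2, 38588036 to 38644087, minus strand). It was at 34.1, 35.0, 32.9 and 32.8 FPKM in ctr_hEV and at 28.0, 36.4, 39.6 and 29.8 in RIC_hEV, so all 4 ctr_hEV values lay between both RIC_hEV pairs. The log2 changes of Psmb5, Psmb6 and Psmb7 were -0.08, -0.05 and -0.02 (limma adjusted p = 0.723, 0.836 and 0.928). They turned to 0.054, 0.088 and 0.11 with median centring but stayed lower with quantile normalization, at -0.11, -0.048 and -0.0097.

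**Figure D2:**
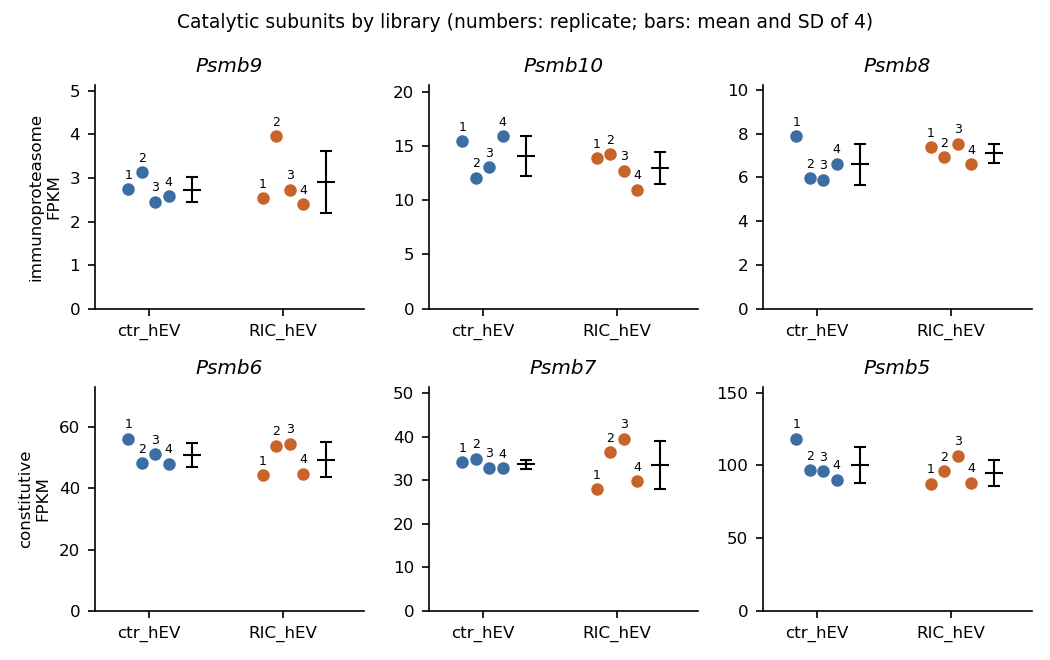
FPKM of the 3 immunoproteasome subunits (upper row) and of the constitutive subunit each replaces (lower row), by group on the x axis; points are libraries with their replicate number, and bars the mean and SD of 4. Each y axis starts at 0 and has its own range. The groups overlap in all 6 genes, and in Psmb7 the 4 ctr_hEV points (32.8 to 35.0) lie between the RIC_hEV points.

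The balance between both kinds of catalytic subunit was compared within each library, so that the scale of a library enters only through the added 1. The FPKM of Psmb8 was 6.58% ± 0.569 of that of Psmb5 in ctr_hEV and 7.55% ± 0.616 in RIC_hEV. These percentages rest on the level of Psmb5, which is uncertain as given above. The log2 ratio of (FPKM + 1) of Psmb8 to Psmb5 was -3.75, -3.81, -3.82 and -3.58 in ctr_hEV and -3.40, -3.61, -3.65 and -3.55 in RIC_hEV. RIC_hEV 1 and RIC_hEV 4 lay above every ctr_hEV library, and ctr_hEV 4 lay among the RIC_hEV values. The difference of 0.18 did not pass (two-sided exact permutation test over 70 assignments, p = 0.0857, adjusted over the 3 ratios 0.257). Without ctr_hEV 4, the library among the RIC_hEV values, it was 0.24 (exact p = 0.0286, the smallest the design allows, adjusted 0.0857). Leaving out that library was bound to part the groups, so this p-value adds no support. Without any other single library the exact p was 0.0857 to 0.171. With quantile normalization the difference was 0.33 (exact p = 0.0857).

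The other ratios differed less. Psmb9 was at 5.39% ± 0.782 of Psmb6 in ctr_hEV and 5.86% ± 1.03 in RIC_hEV, a difference in log2 ratio of 0.10 (exact permutation p = 0.429, adjusted 0.629). This difference was 0.023 without RIC_hEV 2, 0.17 without ctr_hEV 2 and 0.23 with quantile normalization (exact p = 0.257). Psmb10 was at 41.9% ± 6.19 of Psmb7 in ctr_hEV and 39.4% ± 7.41 in RIC_hEV, a difference of -0.09 (exact permutation p = 0.629, adjusted 0.629). It ran from -0.20 without RIC_hEV 1 to 0.0014 without RIC_hEV 3 and was -0.016 with quantile normalization. None of these differences stood clear of the spread between libraries. Psmb10 therefore stood closer to its counterpart in level than Psmb8 or Psmb9 did in all 8 libraries. The 3 immunoproteasome subunits together held 10.5% to 12.8% of the summed FPKM of the 6 catalytic genes in ctr_hEV and 10.3% to 13.0% in RIC_hEV. This share too depends on the uncertain level of Psmb5.

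**Figure D3:**
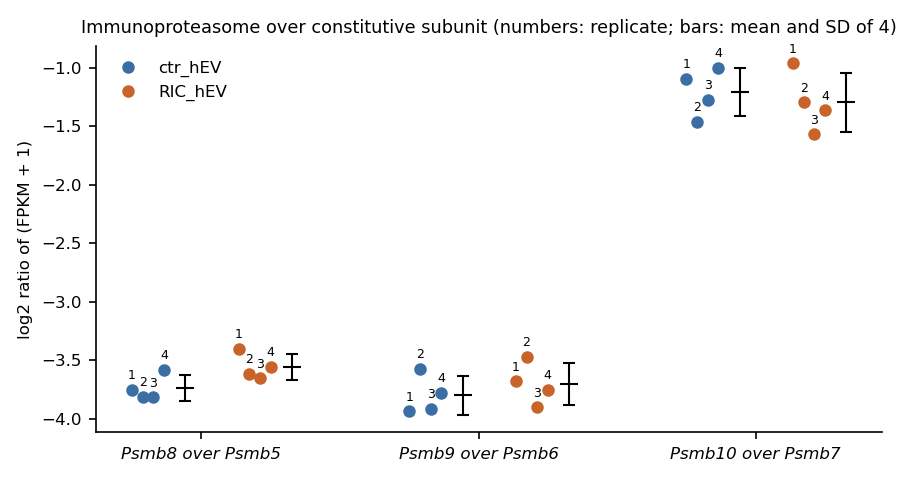
Log2 ratio of (FPKM + 1) of each immunoproteasome subunit to its constitutive counterpart (y axis) by pair and group (x axis); points are libraries with their replicate number, and bars the mean and SD of 4. For Psmb8 over Psmb5 the RIC_hEV points (-3.65 to -3.40) lie mostly above the ctr_hEV points (-3.82 to -3.58), with ctr_hEV 4 among them; the other pairs are mixed.

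Promoters of the members were searched for the letters of 3 known response elements, and the matches in catalytic genes are shown because these genes are the ones compared above. In RefSeq's GRCm38.p6 table, 43 promoters of 40 members were found, and the 250 bases before each start were searched on both strands. The gamma-interferon activated site was written as TTCNNNGAA. It occurred in 2 member promoters (4.65%, against 7.02% of all 32851 promoters), those of Psmb8 and Psmg1. The antioxidant response core, bound by NFE2L1 and NFE2L2 with small MAF partners, was written as TGACNNNGC. It occurred in 5 (11.6%, against 10.2%), those of Psmb5, Psmb6, Psmc6, Psmd9 and Psmd12. The interferon response core, GAAA followed after any 2 bases by GAAA, occurred in 3 (6.98%, against 2.98%), those of Psmb3, Psmd4 and Psmd9. The 3 matches in catalytic genes are printed below 5′ to 3′ on the gene's strand, with the motif in capitals. A match describes letters only. Starts are RefSeq's; the window of Psmb8 lies inside the gene as GENCODE, the source of the gene positions given here, annotates it, since GENCODE places the gene's first base further upstream. The motifs begin 97, 47 and 9 bases before the start, in the windows chr17:34198088-34198116 (plus), chr14:54618024-54618052 (minus) and chr11:70525328-70525356 (plus).
Psmb8, interferon site: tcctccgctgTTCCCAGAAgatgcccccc
Psmb5, antioxidant core: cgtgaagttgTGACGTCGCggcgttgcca
Psmb6, antioxidant core: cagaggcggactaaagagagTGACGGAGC

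The alpha ring, which forms the gate of the barrel, was measured through 7 genes with means from 16.7 FPKM (Psma2) to 74.6 (Psma6). All 7 lay lower as fitted, by 0.06 to 0.13 log2 units, and none passed. Psma4 had the largest change of the ring. It was at 38.6, 41.8, 38.8 and 37.1 FPKM in ctr_hEV and at 28.8, 40.4, 41.5 and 32.8 in RIC_hEV (log2 change -0.13, limma adjusted p = 0.593). RIC_hEV 2 and 3 lay within the ctr_hEV range, and RIC_hEV 1 and 4 below it. Psma6 was at 74.1, 81.3, 79.8 and 70.1 FPKM in ctr_hEV and at 63.5, 76.6, 80.3 and 71.0 in RIC_hEV, and Psma2 at 17.5, 18.6, 17.2 and 16.5 and at 12.9, 17.3, 18.4 and 15.3. In both, RIC_hEV 1 was again the lowest. Of Psma5, 61.0% of the 31-base stretches occur in other genes, most in Gm8394, so its level (38.9 FPKM on average) is uncertain.

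The structural beta subunits, which hold the ring together without an active site, were Psmb1 to Psmb4. Their means ran from 22.6 FPKM (Psmb1) to 71.9 (Psmb4). Psmb3 had the largest change, at 32.5, 30.2, 29.1 and 25.3 FPKM in ctr_hEV and 23.5, 29.3, 29.1 and 24.4 in RIC_hEV (log2 change -0.14, limma adjusted p = 0.551). Psmb4 had the smallest, with 72.1 ± 4.36 FPKM in ctr_hEV and 71.6 ± 7.03 in RIC_hEV (log2 change -0.01, 95% interval -0.24 to 0.22). Psmb1 ranged from 22.0 to 23.5 FPKM in ctr_hEV and from 17.9 to 26.0 in RIC_hEV, a wider spread.

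The 14 constitutive core genes shared their lowest library but not their highest. Each of the 14 had its lowest value in RIC_hEV 1, where 26.9% of all tested genes had theirs. The highest value fell in ctr_hEV 1 for 5 genes, in ctr_hEV 2 for 5, in RIC_hEV 3 for 3 and in RIC_hEV 2 for 1. In the same order, these libraries held the highest value of 44.7%, 10.1%, 6.82% and 6.69% of all tested genes. Each gene's level was set against its own mean and the median tested gene of that library. On this scale the core lay at -0.18 log2 units in RIC_hEV 1 and -0.13 in RIC_hEV 4, and at 0.14 and 0.20 in RIC_hEV 2 and 3. The ctr_hEV libraries lay between, from -0.078 to 0.079. The median coefficient of variation of the 14 genes was 14.8% in RIC_hEV and 7.16% in ctr_hEV. For the 17 genes of the 19S cap it was 9.72% in RIC_hEV and 13.4% in ctr_hEV, and for all 46 tested members 11.4% and 12.1%. All 14 lay lower in RIC_hEV as fitted, and 13 did with quantile normalization. Only 7 did without RIC_hEV 1, and 1 did with median centring. Psma8, a core subunit of the testis, ranged from 0.191 to 0.531 FPKM under ctr_hEV and from 0.266 to 0.765 under RIC_hEV (exact permutation p = 0.314). Psmb11, the catalytic subunit of the thymus, was listed at 0 in every library.

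The base of the 19S cap holds the ring of 6 ATPases that unfolds substrates. Their means ran from 10.3 FPKM (Psmc6) to 58.0 (Psmc1), and all 6 lay lower as fitted. Psmc1 had the largest change, at 69.5, 67.8, 60.6 and 49.8 FPKM in ctr_hEV and 45.1, 55.1, 57.9 and 58.1 in RIC_hEV (log2 change -0.19, SE 0.13, limma adjusted p = 0.486). RIC_hEV 1 was lowest and ctr_hEV 4 next. Psmc6 was at 9.91, 11.8, 12.4 and 9.41 FPKM in ctr_hEV and 7.78, 9.60, 11.1 and 10.2 in RIC_hEV. It had the same pair of lowest libraries. The level of Psmc1 is uncertain, as 32.2% of its 31-base stretches are shared with other genes.

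Of the base subunits without ATPase activity, Psmd1 and Psmd2 are scaffolds and Psmd4 is a receptor for ubiquitin chains. Psmd1, with the lowest mean and the largest change of the 3, was at 16.6, 16.8, 16.9 and 12.7 FPKM in ctr_hEV and 11.5, 13.3, 13.9 and 15.2 in RIC_hEV. Apart from ctr_hEV 4 every ctr_hEV library lay above every RIC_hEV library. The log2 change was -0.21 (SE 0.12, limma adjusted p = 0.426). Psmd2, the highest of the 3, was at 39.3, 34.7, 37.4 and 26.7 FPKM in ctr_hEV and 28.9, 29.7, 29.7 and 35.9 in RIC_hEV. There ctr_hEV 4 was the lowest library and RIC_hEV 4 stood above the other RIC_hEV libraries. The level of Psmd2 is uncertain, as 31.6% of its 31-base stretches are shared, most of them with Gm5422.

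The lid, which removes the ubiquitin chain, included Psmd8, the member with the largest change of all. Psmd8 (chromosome 7, 29174188 to 29180701, minus strand) was at 104, 84.0, 86.7 and 58.6 FPKM in ctr_hEV and at 55.7, 68.0, 67.3 and 62.8 in RIC_hEV. Of the ctr_hEV libraries 1, 2 and 3 lay above every RIC_hEV library, and ctr_hEV 4 lay among them. The mean was 83.3 ± 18.7 FPKM in ctr_hEV and 63.5 ± 5.67 in RIC_hEV, a log2 change of -0.36 (SE 0.16, 95% interval -0.72 to -0.0047, limma adjusted p = 0.356). Over the libraries left out in turn it was -0.52 to -0.25, with an adjusted p of 0.0606 without ctr_hEV 4 and of 0.657 at most. Leaving out ctr_hEV 4, the library among the RIC_hEV values, was bound to part the groups, so the 0.0606 adds no support. Without that library 175 genes passed over all tested genes, against 4 with all libraries. The change of Psmd8 was -0.15 without ctr_hEV 1 and 3 together and -0.23 with median centring.

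The other 7 lid genes lay closer to 0. Psmd14, the deubiquitinating enzyme of the lid, averaged 15.0 ± 1.62 FPKM under ctr_hEV and 13.3 ± 1.56 under RIC_hEV (log2 change -0.16, limma adjusted p = 0.504). Psmd11, the lowest by level, was at 12.4, 11.8, 11.4 and 8.40 FPKM in ctr_hEV and 10.8, 10.8, 12.5 and 11.6 in RIC_hEV. It and Psmd13 were the lid members that lay higher as fitted, by 0.06 and 0.07. Without ctr_hEV 4, the lowest library of both genes, the cap had 1 higher member of 17 in place of 2.

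Over the 17 cap genes the lowest value fell in ctr_hEV 4 for 8 genes, in RIC_hEV 1 for 8 and in RIC_hEV 4 for 1, and ctr_hEV 1 held the highest value of 11. Among all tested genes 15.0% were lowest in ctr_hEV 4, 26.9% in RIC_hEV 1 and 7.70% in RIC_hEV 4. In ctr_hEV 1, 44.7% of all tested genes were highest. The cap and the core did not follow the same order of libraries. Their difference on the scale used for the core was 0.13 log2 units in ctr_hEV 4, 0.16 in RIC_hEV 2 and 0.14 in RIC_hEV 3, and it was -0.13 in ctr_hEV 1, -0.13 in RIC_hEV 1 and -0.14 in RIC_hEV 4. It therefore took both signs in each group. The median change of the cap was 0.018 above the median tested gene and that of the core 0.024 above it. Without ctr_hEV 4 the cap lay at -0.025 and without RIC_hEV 3 the core at -0.019, and without RIC_hEV 1 the core lay at 0.092. The 3 immunoproteasome genes had a median 0.16 above the median tested gene. With 3 genes this is the value of Psmb9 alone, with Psmb8 at 0.21 and Psmb10 at -0.0032. The median of the 3 was 0.031 without ctr_hEV 1 and ctr_hEV 3 together and 0.038 without RIC_hEV 2.

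**Figure D4:**
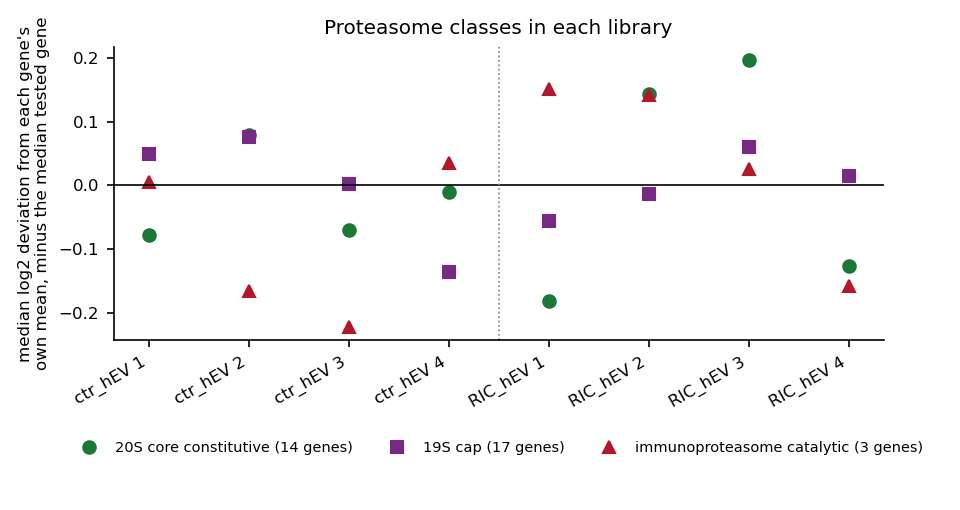
Median log2 deviation of 3 classes of proteasome genes from each gene's own mean, minus that of the median tested gene (y axis), in each library (x axis; the dotted line parts the groups). The 20S core is lowest in RIC_hEV 1 (-0.18) and highest in RIC_hEV 3 (0.20), the 19S cap is lowest in ctr_hEV 4 (-0.14), and the immunoproteasome genes run from -0.22 in ctr_hEV 3 to 0.15 in RIC_hEV 1.

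Dedicated chaperones of the 19S base did not lie in 1 direction. Psmd10, also known as gankyrin, was at 11.3, 8.69, 9.66 and 7.11 FPKM in ctr_hEV and 5.60, 7.04, 8.74 and 7.82 in RIC_hEV (log2 change -0.29, SE 0.16, limma adjusted p = 0.392). Psmd5 was at 6.16, 6.07, 6.07 and 5.58 FPKM in ctr_hEV and 4.09, 3.98, 6.10 and 5.12 in RIC_hEV, with RIC_hEV 3 inside the ctr_hEV range and the others below it (log2 change -0.27, SE 0.13, limma adjusted p = 0.358). Psmd9 was the member with the largest change upward. It was at 7.68, 5.95, 6.20 and 6.20 FPKM in ctr_hEV and 8.02, 7.49, 6.90 and 7.43 in RIC_hEV, so ctr_hEV 1 alone lay among the RIC_hEV libraries. Its log2 change was 0.18 (SE 0.10, 95% interval -0.05 to 0.41, limma adjusted p = 0.424). Of its annotated exon bases 25.5% overlap Gm26745 on the opposite strand, and whether the counting used strand is not stated.

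The activators Psme1 and Psme2 form a ring that opens the core and, like the immunoproteasome subunits, are induced by interferon gamma. Psme1 (chromosome 14, 55578123 to 55581529, plus strand) measured 32.4, 26.4, 26.7 and 25.5 FPKM in ctr_hEV and at 22.7, 23.6, 26.6 and 25.3 in RIC_hEV. Its log2 change was -0.17 (SE 0.11, 95% interval -0.40 to 0.07, limma adjusted p = 0.451). It was -0.093 without ctr_hEV 1, -0.080 without ctr_hEV 1 and 3 together and -0.031 with median centring. Psme2 (chromosome 14, 55587441 to 55591113, minus strand) was at 31.4, 28.2, 26.8 and 29.6 FPKM in ctr_hEV and at 24.8, 28.3, 32.4 and 25.1 in RIC_hEV. RIC_hEV 1 and 4 lay below the ctr_hEV range and RIC_hEV 3 above it, and the log2 change was -0.07 (95% interval -0.32 to 0.18, limma adjusted p = 0.745). The copy Psme2b, which shares 33.5% of the 31-base stretches of Psme2, was listed at 7.33 to 9.89 FPKM, so the share of reads between both is uncertain.

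Psme4, a single-chain activator, was the other member at an unadjusted p under 0.05. It was at 7.74, 9.38, 9.19 and 7.25 FPKM in ctr_hEV and at 6.22, 6.08, 7.02 and 7.89 in RIC_hEV. RIC_hEV 4 lay among the ctr_hEV libraries and the other 3 below them. Its log2 change was -0.27 (SE 0.12, 95% interval -0.53 to -0.0038, limma adjusted p = 0.356), and it was -0.13 with median centring and -0.15 with quantile normalization. Psme3, the nuclear relative of Psme1 and Psme2, averaged 23.2 ± 3.48 FPKM under ctr_hEV and 20.7 ± 1.81 under RIC_hEV (limma adjusted p = 0.548). Psmf1, a regulator first known as an inhibitor of the core, was at 5.24, 4.25, 3.88 and 3.66 FPKM in ctr_hEV and between 3.70 and 4.01 in RIC_hEV.

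Assembly of the core is guided by the chaperones Psmg1 to Psmg4. Psmg1 had the highest mean, 11.5 FPKM, and Psmg3 the lowest, 3.04. Psmg2 had the largest change, at 8.40, 7.74, 6.46 and 6.21 FPKM in ctr_hEV and 4.89, 6.27, 7.15 and 5.55 in RIC_hEV (log2 change -0.24, limma adjusted p = 0.407). Psmg3 was at 3.04 ± 0.375 and 3.04 ± 0.298 FPKM, and Psmg4 at 9.55 ± 1.39 and 9.61 ± 2.11, with log2 changes of 0.0023 and -0.0046.

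Partners of the proteasome that carry other names also held no call. Of 16 such genes 14 were in the table and tested, 0 passed, 2 lay higher and 12 lower, and the median log2 change was -0.09. Adrm1, a ubiquitin receptor of the cap, was at 11.5, 11.3, 10.4 and 8.26 FPKM in ctr_hEV and 9.34 to 9.87 in RIC_hEV. Sem1, a small lid subunit, ranged from 11.3 to 13.1 FPKM in ctr_hEV and from 10.4 to 14.4 in RIC_hEV. Pomp, which matures new cores, was at 13.8, 13.9, 13.5 and 12.7 FPKM in ctr_hEV and at 11.5, 13.9, 16.7 and 12.1 in RIC_hEV. In RIC_hEV, Pomp thus lay like the median of the core genes, with libraries 2 and 3 above 1 and 4.

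The control genes of proteasome transcription numbered 8, of which 7 were tested and 0 passed (3 higher, 4 lower, median -0.05). Nfe2l1, the factor that drives proteasome genes when degradation is impaired, ranged from 9.96 to 12.3 FPKM in ctr_hEV and from 8.86 to 10.8 in RIC_hEV (limma adjusted p = 0.807). Nfe2l2, the antioxidant factor NRF2, was at 35.5, 37.1, 34.9 and 27.9 FPKM in ctr_hEV and at 22.7, 26.6, 29.4 and 29.7 in RIC_hEV. All ctr_hEV libraries but ctr_hEV 4 lay above RIC_hEV (log2 change -0.31, limma adjusted p = 0.354). Of 14 genes of ubiquitin supply 0 passed (4 higher, 10 lower, median -0.12). The ubiquitin-conjugating enzyme Ube2d3 was the only one of these 14 whose groups did not overlap, with 8.06 to 10.8 FPKM under ctr_hEV and 6.16 to 7.86 under RIC_hEV (log2 change -0.36, limma adjusted p = 0.347). Among all tested genes the groups did not overlap in 5.88%, so 1 of 14 is near the background.

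Genes of interferon gamma signalling and peptide presentation, the setting in which the immunoproteasome works, numbered 20, of which 19 were tested and 0 passed (5 higher, 14 lower, median -0.12, against -0.11 for all tested genes). Irf1, a transcription factor induced by interferon, averaged 8.16 ± 1.40 FPKM under ctr_hEV and 6.98 ± 0.593 under RIC_hEV. Nlrc5, the activator of MHC class I genes, was at 3.59 ± 0.757 and 3.22 ± 0.186 FPKM. Both factors overlapped between the groups. The kinase Jak2 was the only one of the 19 whose groups did not, at 4.60, 4.57, 4.06 and 3.12 FPKM in ctr_hEV and 2.66 to 2.90 in RIC_hEV (log2 change -0.42, limma adjusted p = 0.331). This count too is near the 5.88% of all tested genes. Tap1, whose annotated exons overlap those of Psmb9 on the opposite strand, was at 2.99, 2.39, 2.49 and 2.37 FPKM in ctr_hEV and at 3.47, 2.77, 2.59 and 2.82 in RIC_hEV (log2 change 0.13, limma adjusted p = 0.531). Its partner Tap2 was at 5.65 ± 1.20 and 4.79 ± 0.430 FPKM, and B2m, the light chain of MHC class I, at 1685 ± 274 and 1886 ± 150 (limma adjusted p = 0.499 and 0.503).

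Markers of the cells that can carry immunoproteasome stood beside these values as follows, as the range of summed FPKM per library. Macrophage and Kupffer cell markers (11 of 11 tested) summed to 485 to 952 in ctr_hEV and 457 to 635 in RIC_hEV, neutrophil markers (5 of 10 tested) to 16.1 to 77.9 and 9.35 to 18.9, and dendritic cell markers (3 of 8) to 8.28 to 17.2 and 7.99 to 10.7. T and NK cell markers (3 of 11) summed to 6.15 to 10.5 and 8.25 to 10.7. B and plasma cell markers (3 of 8) summed to 16.5 to 27.5 and 44.9 to 56.9, the one immune list whose sums did not overlap. The remaining lists were hepatocyte (26154 to 39490 and 31238 to 37196), endothelial (68.5 to 81.6 and 64.1 to 90.6), stellate cell and fibroblast (102 to 231 and 97.7 to 126) and cholangiocyte markers (26.7 to 149 and 20.3 to 39.2). Spp1 is in both the macrophage and the cholangiocyte list and made up most of the cholangiocyte sum, with 129 FPKM of 149 in ctr_hEV 1 and 22.5 of 26.7 in ctr_hEV 2. No marker was at 0 in all libraries. As fitted, all 8 hepatocyte markers and all 3 tested B and plasma cell markers lay higher in RIC_hEV and all 5 tested neutrophil, all 8 stellate cell and fibroblast and all 4 tested cholangiocyte markers lower, where 73.0% of all tested genes lay lower, and none passed over all genes (limma, lowest adjusted p = 0.134). The sums of macrophage, dendritic, stellate and cholangiocyte markers were highest in ctr_hEV 1. That library also held the highest value of 24 of the 46 tested members, Psmb8 among them, and of 44.7% of all tested genes. Psmb9 was highest in RIC_hEV 2 and Psmb10 in ctr_hEV 4. The part of these cells in the proteasome values was not tested.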

How the data were processed

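Per the labels' protocols, total RNA of the liver came from a Trizol extraction and libraries from a VAHTS kit. Among the tools in the submitters' processing notes are HISAT2 2.2.1, HTSeq 0.13.5 and, for read trimming and quality, Trimmomatic 0.38 and FastQC 0.11.9, with the build mm10. The values deposited by the authors are FPKM, 1 column per library; the program that made them, the annotation, the gene lengths and use of strand are not stated. Groups and replicate numbers came from the sample titles.

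Of 55335 rows, 3225 without a gene name (0.176% to 0.207% of a library's FPKM) were left out, and of 80 repeated symbols the row with the higher mean was kept. Values were transformed to log2(FPKM + 1), which understates changes of low genes. Genes with a mean of at least 1 FPKM were fitted with limma 3.58.1 (R 4.3.3, mean-variance trend, two-sided, Benjamini-Hochberg over 11268 genes, threshold 0.05), checked on simulated data. Ratios and genes below the filter had two-sided exact permutation tests. Depth was estimated from the most common FPKM times exon length of low genes; 14.6% to 16.3% of low values lay within 0.02 of a whole step, so no count model was used. Positions, exon overlaps and shared 31-base stretches come from GENCODE M21 (mm10), promoters from RefSeq (GRCm38.p6). Members, lists, motifs and tests were chosen with earlier results of these data known.

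Genes with values in every library were the catalytic pairs, Psme1, Psme2 and, per role, the highest, the lowest and the most changed member, some given as means or ranges. Psmd9 and, of the pathway lists, Adrm1, Pomp, Nfe2l2, Tap1 and Jak2 were also given per library, in whole or for 1 group; Psmd9 was singled out after its values were seen. No protein sequences are shown. One gene of the interferon list is counted in it but not reported here.

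Alternatives were another pseudocount, filters, scalings, limma without a trend, a replicate block, and libraries left out.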

Additional observations from a re-analysis of the deposited data

Results flagged for a closer look

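In 6 of 94 group values of the members, 1 library stood far from the other 3 of its group, where chance gives about 1 in 20. In ctr_hEV 4, Psmd1 was at 12.7 FPKM (the others 16.6 to 16.9) and Psmd5 at 5.58 (6.07 to 6.16). In ctr_hEV 1, Psmd9 was at 7.68 FPKM (5.95 to 6.20). In RIC_hEV 4, Psmd2 was at 35.9 FPKM (28.9 to 29.7) and Psmd3 at 16.6 (12.5 to 13.1). In RIC_hEV 1, Psmb2 was at 29.5 FPKM (36.0 to 37.4). These are 5 genes of the cap and its chaperones and 1 core gene.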

How the results depend on the processing

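No member passed under any of the 17 alternatives run (lowest adjusted p = 0.0606, Psmd8 without ctr_hEV 4), and members at an unadjusted p under 0.05 numbered 0 to 8. The 8 came without ctr_hEV 4, where 29.1% of all tested genes lay under 0.05. Over the alternatives that share of all tested genes was 5.22% (without ctr_hEV 1 and 3 together) to 29.1%. The median change of the members relative to all tested genes was -0.068 without a filter, and -0.014 to 0.049 over single libraries left out. The ratio of Psmb8 to Psmb5 kept its sign throughout (0.13 to 0.24 over single libraries, 0.33 with quantile normalization); Psmb9 to Psmb6 (0.023 to 0.17) turned to -0.025 without ctr_hEV 1 and 3 together; Psmb10 to Psmb7 ran from -0.20 to 0.0014. With median centring Psmb10, Psmb5, Psmb6, Psmb7 and Psme2 turned to 0.022, 0.054, 0.088, 0.11 and 0.064. With quantile normalization these genes kept their sign, at -0.026, -0.11, -0.048, -0.0097 and -0.031. Without ctr_hEV 1 and 3 together Psmb5 and Psmb6 were at 0.015 and 0.028. Over single libraries Psmb8 reached from 0.058 to 0.18, Psmb10 from -0.18 to -0.042, Psmb9 from -0.069 to 0.11, Psmb5 from -0.14 to 0.00011, Psmb6 from -0.098 to 0.0012 and Psmb7 from -0.11 to 0.054. The cause was not tested. The labels do not say that replicate numbers pair the samples. The deviations of same-numbered libraries correlated at 0.052, 0.12, -0.0086 and -0.23. Such correlations between single libraries cannot decide whether the samples were paired, so pairing is unknown. With a replicate block 0 members passed (lowest adjusted p = 0.493) and 3 genes passed in all. The ratio differences of 0.18, 0.10 and -0.09 cannot change under such a block, as the groups are of equal size. Flipping signs within replicate numbers gave a two-sided exact p of 0.125, 0.125 and 0.625, where 0.125 is the smallest possible. Over all genes 4 passed, 175 without ctr_hEV 4, 2 without a filter, without ctr_hEV 3 or without RIC_hEV 1, and 1 at a mean of at least 5 FPKM, without RIC_hEV 3 or without RIC_hEV 4. Depth limits the lowest members such as Psmb9 most.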
